A study of Homo sapiens with 36 samples.

Results

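The collagen genes were taken as the GENCODE protein-coding genes whose symbol reads COL, a number, A and a number, such as COL1A1. This rule found 44 of 20033 protein-coding genes. The study ran chromatin immunoprecipitation with sequencing (ChIP-seq) in A549, a cell line from a human lung adenocarcinoma, and in BEAS-2B (B2B), an immortalized human bronchial epithelial line. The labels name no treatment or engineered change for either line. The lists analysed here hold the peaks of RNA polymerase II (pol II), the promoter mark H3K4me3, the promoter and enhancer mark H3K27ac, the Mediator subunit Med1 and the Jun-family subunits of AP-1 (JunB, Jun and JunD) in both lines, and of the insulator proteins CTCF and Rad21 in B2B. Each of the 16 lists was called by the authors on 2 merged samples, so a list has no replicate error, and the lines were compared by counts without a test between them. Cancer and cell line cannot be told apart with 1 line of each kind, nor can a mark carried by fewer cells be told apart from less of it per cell.

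Collagens are secreted or membrane-bound proteins built from 3 chains that wind into a triple helix. Fibrillar collagens give tissues tensile strength, type IV collagens form the sheet of basement membranes, type VII anchors epithelium to the tissue below, and the FACIT group decorates fibrils. Fibroblasts are the main source of fibrillar collagen in the lung, while epithelial cells also contribute basement membrane chains. AP-1 is a dimer of Jun-family and Fos-family proteins, and its best known target sequence is TGACTCA.

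The lists held 8563 to 61225 peaks, with a lowest −log10 q just above 2 in each. A gene was scored in a list only where the list covered it. A549 H3K27ac stopped on chromosome 13, both Med1 lists on chromosome 15 and A549 pol II on chromosome 20, so 33 collagen genes could be scored for H3K27ac, 35 for Med1 and 37 for pol II in A549. 6 of the lists also stopped short of chromosome ends, which left COL20A1 unscored for H3K4me3 and JunB in A549. Fold enrichment, as MACS2 reports it, is the height of a peak over its local background. Its median over the whole H3K4me3 list was 12.76 in A549 and 3.422 in B2B, so folds are also given as a percentile within their own list. Of the 5 epithelial markers KRT8, KRT18, KRT19, EPCAM and CDH1, 4 had pol II and H3K4me3 peaks at the promoter in each line, and KRT19 had none in either. The endothelial markers PECAM1 and CDH5 had no promoter peak of either kind. Of 7 mesenchymal markers 5 had H3K4me3 in A549 and 7 in B2B, and 5 had pol II in A549 and 4 in B2B. Of the airway basal markers KRT5, KRT14 and TP63, only TP63 had such peaks, of both kinds and in A549 only. Of the alveolar markers NKX2-1, SFTPB and SFTPC, NKX2-1 had H3K4me3 in both lines and pol II in A549. SFTPC had H3K4me3 in A549 only. The blood marker CD68 had pol II in both lines, of 76.89 in A549 and 6.337 in B2B, without H3K4me3, and PTPRC had neither.

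Sequences under the strongest Jun-family summits are shown first, since the AP-1 letters lie close to the summit at some collagen promoters and not at others. A promoter here is the stretch within 1 kb of a start site, and the canonical start is that of the transcript GENCODE tags as canonical. Jun-family peaks touched this stretch of the canonical start at 6 collagen genes in each line, of which COL5A3, COL6A1, COL7A1, COL8A1 and COL12A1 were called in both. Of the 4 genes with the letters TGACTCA, on either strand, within 50 bases of the summit, 3 are printed below from the plus strand of hg38, the summit with 50 bases on each side, with those letters in capitals.
COL7A1, chr3:48595608-48595708, 329 bases before the canonical start: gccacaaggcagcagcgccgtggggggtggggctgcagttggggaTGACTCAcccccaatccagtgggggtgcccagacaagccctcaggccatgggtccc
COL6A1, chr21:45981482-45981582, 238 bases before the canonical start: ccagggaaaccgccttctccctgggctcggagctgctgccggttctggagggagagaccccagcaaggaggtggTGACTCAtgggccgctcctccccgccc
COL5A3, chr19:10009383-10009483, in intron 1 and 1071 bases past the canonical start: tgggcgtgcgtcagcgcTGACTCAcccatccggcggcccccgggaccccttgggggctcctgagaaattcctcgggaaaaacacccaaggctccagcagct
The summits of COL12A1, of COL4A5 in A549 and of COL1A1 in B2B had no such letters in the window. The share with TGACTCA was 4 of 6 (66.7%) in each line, beside 13.7% of all 6309 promoters with a Jun-family peak in A549 and 33.4% of 1585 in B2B. The count is small, and both lines had the same 4 genes. The related cAMP-response letters TGACGTCA were found at 0 of the 6 in each line, beside 6.72% and 10.5% of all such promoters.

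The share of collagen promoters with H3K4me3 was within counting error of that of all genes in A549 and below it in B2B. H3K4me3 marks the nucleosomes around start sites of active or poised genes. A peak within 1 kb of any annotated start was called at 28 of 43 collagen genes in A549 (65.12%, Wilson 95% interval 50.17 to 77.58), beside 72.5% of all protein-coding genes. In B2B it was called at 14 of 44 (31.82%, 20.0 to 46.56), beside 61.5%. On the 43 genes scored in both lines the share was 32.56 points higher in A549 (Newcombe 95% interval 11.44 to 49.91, counting error only), where it was 11.03 points higher over all genes. This interval takes the shares as independent, and the paired interval for the same genes scored in both lines ran from 14.24 to 47.6. 12 genes were called in both lines, 16 in A549 only, 2 in B2B only (COL3A1 and COL11A1) and 13 in neither. Over all genes 12.4% were called in A549 only and 1.38% in B2B only.

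Pol II, the enzyme that transcribes these genes, was scarce at collagen starts in both lines. It was called at 10 of 37 collagen genes in A549 (27.03%, 15.4 to 42.98), beside 67.9% of all genes, and at 11 of 44 in B2B (25%, 14.57 to 39.44), beside 49.2%. On the 37 genes scored in both lines it was called at 10 in A549 and at 8 in B2B, a difference of 5.405 points with an interval that held 0 (−14.03 to 24.36). The other B2B genes, COL4A5, COL4A6 and COL6A1, lie on chromosomes where A549 pol II could not be scored. COL1A1, COL4A1, COL4A2, COL5A2 and COL12A1 had pol II in both lines. COL4A3, COL4A4, COL7A1, COL26A1 and COL27A1 had it in A549 only (19.1% of all genes did), and COL1A2, COL5A1 and COL8A1 in B2B only (1.43% of all genes).

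**Figure D1:**
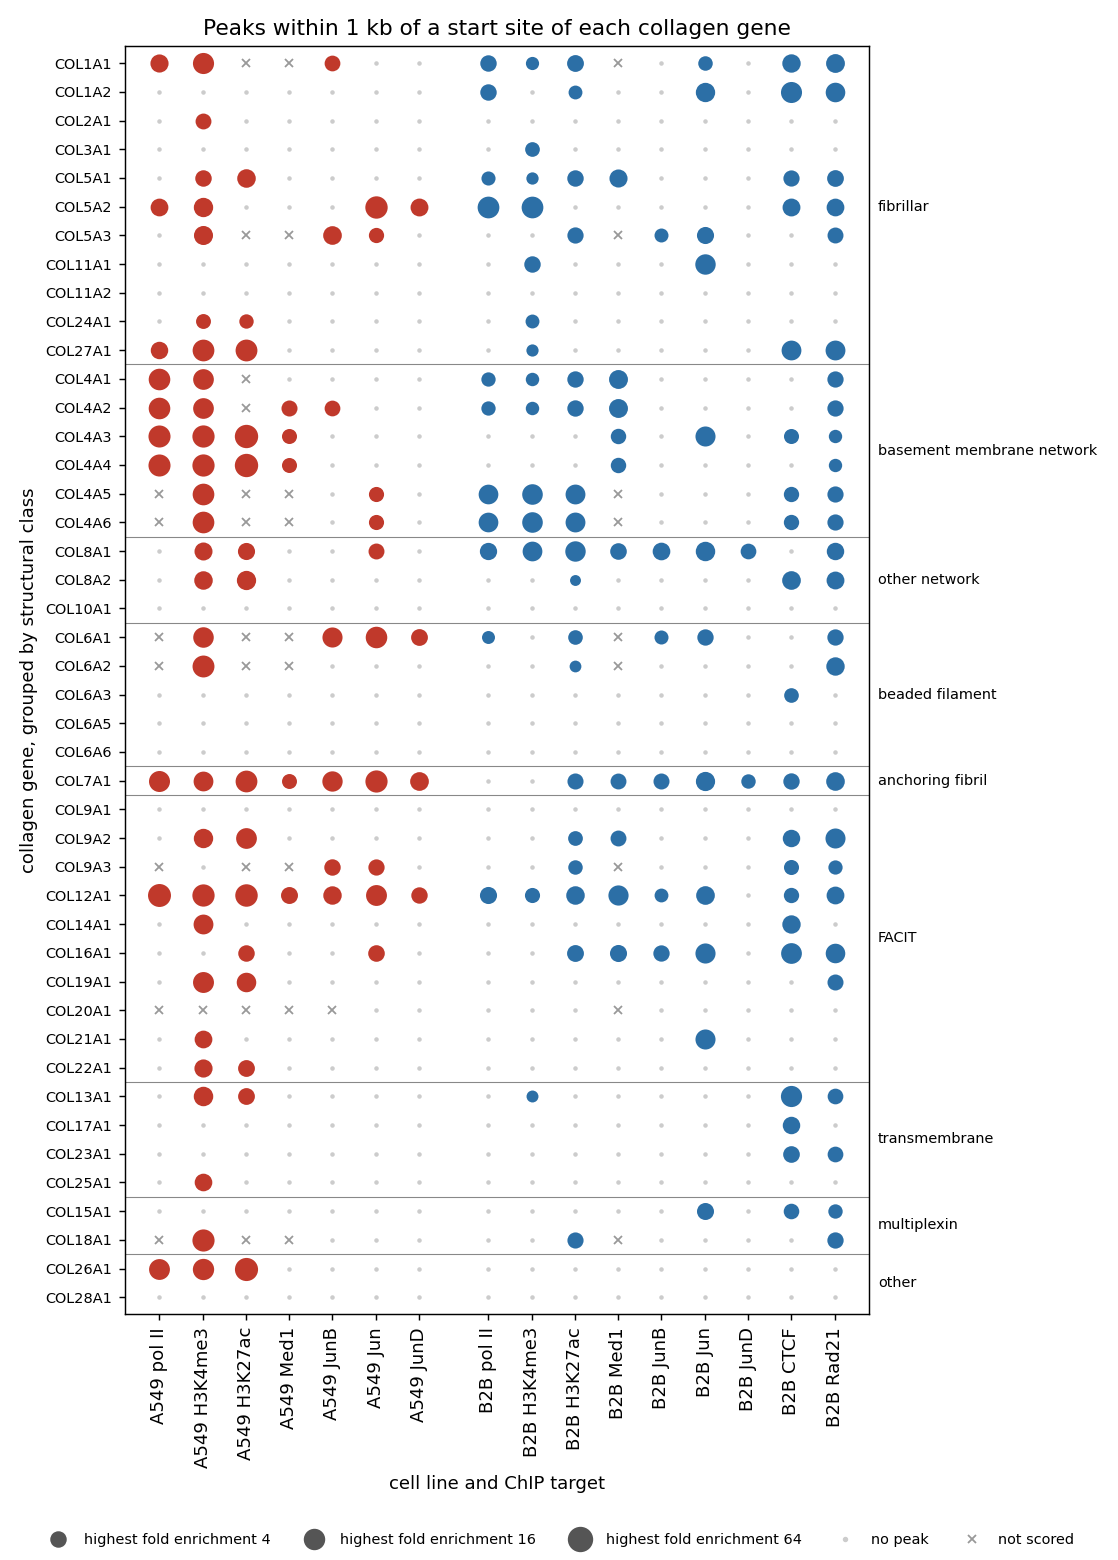
Peaks within 1 kb of any start site for each of the 44 collagen genes (rows, grouped by structural class) in each of the 16 lists (columns, A549 in red and B2B in blue). The area of a disc grows with the log2 of the highest fold enrichment, small dots mark genes without a peak and crosses genes not scored. The H3K4me3 column holds 28 discs in A549 and 14 in B2B, and pol II holds 10 and 11.

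H3K27ac was called at 15 of 33 collagen genes in A549 (45.45%, 29.84 to 62.01) and at 18 of 44 in B2B (40.91%, 27.69 to 55.59), beside 71.7% and 63.2% of all genes. On the 33 genes scored in both, 7 were called in both lines, where 60.9% of all genes were, 8 in A549 only, where 10.8% of all genes were, and 1, COL1A2, in B2B only, where 1.94% were. The difference was 21.21 points, beside 8.901 over all genes. Whether its interval held 0 depended on the settings, with −1.709 to 41.32 as the main interval, 3.541 to 37.05 with the genes paired, 4.77 to 46.4 at canonical starts and 0.7326 to 44.35 at 3 kb. Med1, which belongs to the complex that links enhancer-bound factors to pol II, was called at 5 of 35 in A549 (14.29%, 6.26 to 29.38) and at 10 of 35 in B2B (28.57%, 16.33 to 45.05), beside 53.2% and 59.5%. The 5 A549 genes (COL4A2, COL4A3, COL4A4, COL7A1 and COL12A1) were also called in B2B (49.6% of all genes were called in both), so 0 were called in A549 only (3.68% of all genes) and 5 in B2B only (9.98%). At COL4A2 and COL7A1 the Med1 peaks of the lines lay at separate places. That of COL4A2 was 199997 bases past the canonical start in A549 and at the promoter shared with COL4A1 in B2B, and that of COL7A1 was at the canonical start in A549 and 31030 bases past it, near UCN2, in B2B. The difference was −14.29 points, beside −6.293 over all genes, with a main interval of −32.62 to 5.147, which left 0 with the genes paired (−28.04 to −1.152) and at a −log10 q of at least 5 (−37.41 to −1.545).

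**Figure D2:**
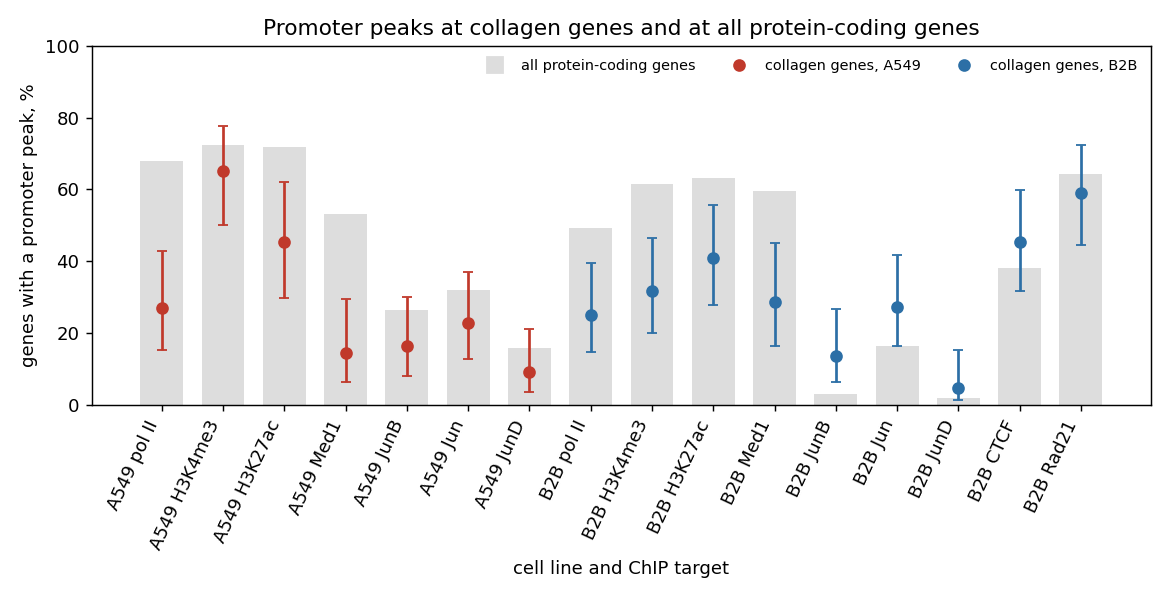
Share of collagen genes with a promoter peak (points, with Wilson 95% intervals that cover counting error only) and of all protein-coding genes (grey bars), in percent, for each line and ChIP target. Pol II, H3K27ac and Med1 lie below the grey bars in both lines, and JunB, Jun and JunD lie below them in A549 and above them in B2B.

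Most of the 16 genes with H3K4me3 in A549 only had no pol II peak there where pol II could be scored. They were COL2A1, COL4A3, COL4A4, COL5A3, COL6A1, COL6A2, COL7A1, COL8A2, COL9A2, COL14A1, COL18A1, COL19A1, COL21A1, COL22A1, COL25A1 and COL26A1. A549 pol II was called at 4 of the 13 that could be scored (30.8%), beside 60.3% of all genes with H3K4me3 in A549 only. A549 H3K27ac was called at 8 of 12 (66.7%, beside 84.8%). B2B H3K27ac was called at 7 of the 16 (43.8%, beside 22.6%), among them COL6A1, COL6A2, COL7A1 and COL18A1, so at these genes H3K27ac was called where H3K4me3 was not. The highest H3K4me3 fold of these 16 genes ran from 5.402 to 38.89 with a median of 17.03, which was percentile 54.8 of the list. The 12 genes called in both lines had pol II at 6 of 10 in A549 (60%, beside 96.9% of all genes called in both). No test of these differences was run, since the genes of a family are not replicates.

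By class, H3K4me3 was called in A549 at 7 of 11 fibrillar genes, at 6 of 6 type IV genes and at 6 of 9 FACIT genes. In B2B it was called at 7, 4 and 1 of them. Over all genes the shares were 72.5% in A549 and 61.5% in B2B, and the type IV genes share their promoters in pairs. The fibrillar class was therefore called equally often, although not at the same members. COL2A1, the cartilage collagen, and COL5A3 were called in A549 only, with folds of 5.402 and 13.41, and COL3A1 and COL11A1 in B2B only, with 4.026 and 6.304. COL5A3 also had H3K27ac in B2B, of 5.958, a mark that could not be scored at this gene in A549.

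Of the genes of type I and III collagen, the bulk of interstitial fibrils, COL1A1 was marked in both lines, while COL1A2 and COL3A1 had promoter peaks in B2B only. COL1A1, which codes for the alpha1 chain, had in A549 a pol II peak of fold 10.18 at an internal start and an H3K4me3 peak of 26.41 (percentile 65.6). In B2B its strongest pol II peak, of 6.284, lay 28 bases past the canonical start, with H3K4me3 of 2.861 (percentile 36.7), H3K27ac of 6.986, CTCF of 7.292 and Rad21 of 12.46. COL1A1 lies on chromosome 17, where A549 H3K27ac and both Med1 lists could not be scored. COL1A2, which codes for the partner chain alpha2, had no promoter peak of any kind in A549. In B2B it had H3K27ac of 3.31, CTCF of 25.85 and Rad21 of 15.86, while its pol II peak of 6.287 and Jun peak of 14.7 lay at an internal start about 29 kb into the gene, and it had no H3K4me3. COL3A1 had no promoter peak in A549 and a single B2B peak, of H3K4me3 (4.026, percentile 62.0), which was 185 bases wide and narrower than most of its list (width percentile 6.14).

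The type V chains control the width of type I fibrils. COL5A2 had the highest H3K4me3 and pol II ranks of all collagen genes in B2B. Its H3K4me3 peak there had a fold of 32.71 (percentile 100) and its pol II peak 32.92 (percentile 99.4), against 14.7 (percentile 52.3) and 9.101 (percentile 60.1) in A549. No H3K27ac peak was called at its starts in either line. COL5A1 had H3K4me3 in both lines, of 6.351 in A549 and 2.365 in B2B, and pol II of 3.496 in B2B only. COL27A1, a fibrillar gene of cartilage, stood the other way, with pol II of 8.326, H3K4me3 of 32.95 and H3K27ac of 33.97 in A549, and H3K4me3 of 2.33 (percentile 20.2) without pol II or H3K27ac in B2B. COL24A1 had H3K4me3 in both lines, of 4.238 (percentile 13.3) in A549 and 3.335 (percentile 48.2) in B2B, and H3K27ac of 3.733 in A549 only.

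The type IV genes are arranged as 3 pairs that start head to head, so that 1 peak can serve both genes of a pair, and the pairs went different ways. COL4A1 and COL4A2, the chains of every basement membrane, shared a pol II peak in each line, of 31.2 in A549 and 3.667 in B2B, and an H3K4me3 peak of 22.84 (percentile 61.1) and 3.011 (percentile 40.7). In B2B they also shared H3K27ac of 6.164, which could not be scored there in A549, and Med1 of 12.81 (percentile 89.0). COL4A3 and COL4A4, chains of kidney and lung alveolar basement membrane, shared pol II of 36.73, H3K4me3 of 38.89 and H3K27ac of 59.15 in A549, and none of these marks was called at either gene in B2B. Med1 was called at this pair in both lines, at 4.365 in A549 and 4.814 in B2B. COL4A5 and COL4A6, on chromosome X, shared H3K4me3 in both lines, of 32.08 in A549 (percentile 74.4) and 22.02 in B2B (percentile 99.7). B2B also had pol II of 16.44 (percentile 96.2) and H3K27ac of 17.24 (percentile 98.6) there, and neither mark could be scored on this chromosome in A549. Each pair enters the counts above as 2 genes. With each pair counted once, the H3K4me3 difference was 32.5 points.

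COL8A1, a short-chain network collagen of vessel walls, ranked high in B2B. Its B2B H3K4me3 peak had a fold of 16.64 (percentile 98.9) and a width of 4542 bases (width percentile 99.9), its H3K27ac peak 20.84 (percentile 99.4) and its pol II peak 7.898. In A549 it had H3K4me3 of 9.737 (percentile 45.4), H3K27ac of 7.535 and no pol II. At its canonical start the partner COL8A2 had H3K4me3 of 10.5 and H3K27ac of 14.31 in A549, and in B2B H3K27ac of 1.823 (percentile 0.0769) without H3K4me3. COL10A1, the collagen of growth plate cartilage, had no promoter peak in any list.

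Among the beaded filament genes, COL6A1 and COL6A2 had H3K4me3 in A549 only, of 21.58 and 34.99. In B2B both had H3K27ac, of 3.957 and 2.139, and COL6A1 had pol II of 2.73 (percentile 11.3). Neither mark could be scored at these genes in A549. COL6A3, which codes for the third chain of the same trimer, had neither H3K4me3 nor pol II in either line, and COL6A5 and COL6A6 had no promoter peak in any list.

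COL7A1 codes for the anchoring fibril that ties basement membrane to the stroma. In A549 it had 11 pol II peaks within 1 kb of its 11 annotated starts, with 25.4 at the canonical start as the strongest, and H3K4me3 of 16.9. B2B had neither mark there. At the canonical start H3K27ac was called in both lines, at 33.31 (percentile 72.0) in A549 and 4.198 (percentile 29.0) in B2B, and Med1 in A549 only, at 4.303. The strongest B2B peaks of H3K27ac and Med1 at this gene, of 5.682 and 5.434, lay at its other end near UCN2.

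The FACIT gene COL12A1, like COL7A1, had promoter peaks of all 7 shared targets in A549. COL6A1 had those of the 4 that could be scored there. The strongest COL12A1 pol II peak had a fold of 51.27 in A549 (percentile 89.4) and 7.506 in B2B (percentile 79.7). Those of H3K4me3 had 39.55 and 4.471, of H3K27ac 42.78 and 11.41, and of Med1 7.247 and 19.27. COL9A2 had H3K4me3 of 14.87 in A549 only and H3K27ac at separate places, of 23.25 in A549 at a start near the canonical one and of 4.077 in B2B 12542 bases past it. COL14A1, COL19A1, COL21A1 and COL22A1 had H3K4me3 in A549 only, at 17.17, 24.79, 9.04 and 10.21, with no pol II in either line. COL19A1 and COL22A1 also had H3K27ac in A549, of 15.58 and 6.971, and the COL19A1 peaks lay near a start of LMBRD1 as well. COL9A3 had H3K27ac of 3.827 in B2B, not scored in A549, and no H3K4me3 in either line. COL16A1 had no H3K4me3, and its strongest H3K27ac peaks lay at separate internal starts, 36697 bases past the canonical start in A549 (6.405) and 13576 in B2B (7.051). At the former B2B had a peak of 2.469. COL9A1 and COL20A1 had no promoter peak in the lists that covered them.

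Of the transmembrane genes, COL13A1 had H3K4me3 of 15.39 in A549 and 2.206 (percentile 15.7) in B2B, with H3K27ac of 6.933 in A549 only, and COL25A1 had H3K4me3 of 8.748 in A549 only. COL17A1, the hemidesmosome collagen of basal epithelium, had no pol II, H3K4me3 or H3K27ac in either line, and neither had COL23A1. The multiplexin COL18A1, the source of endostatin, had H3K4me3 of 38.18 (percentile 85.0) in A549 only and H3K27ac of 3.747 at the same start in B2B, a mark not scored there in A549, and COL15A1 had none of these marks. COL26A1 had pol II of 24.1, H3K4me3 of 28.11 and H3K27ac of 54.76 in A549 and no promoter peak in B2B. COL11A2 and COL28A1 had no promoter peak in any list.

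**Figure D3:**
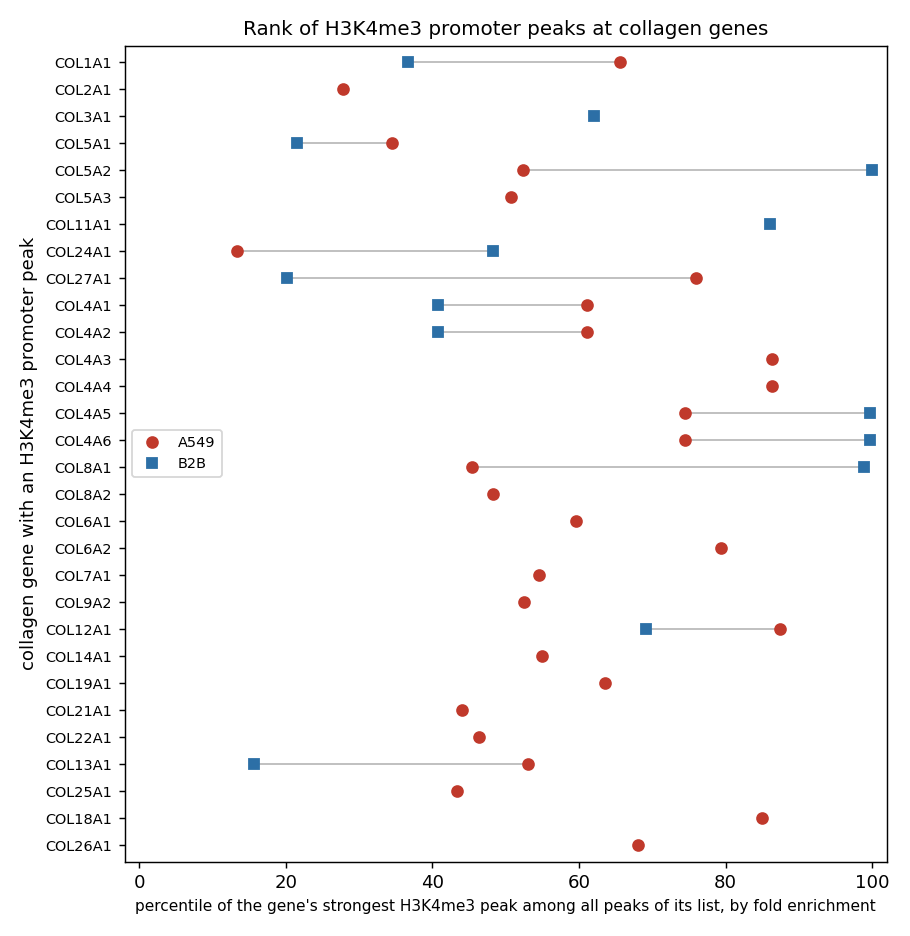
Percentile of the strongest H3K4me3 promoter peak of each collagen gene among all peaks of the same list, ranked by fold enrichment, with circles for A549 and squares for B2B. A gene with 1 symbol had a peak in that line only. The 12 genes called in both lines include COL5A2, COL4A5 and COL8A1, at percentiles 100, 99.7 and 98.9 in B2B.

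The shares of collagen promoters with a Jun-family peak were below those of all genes in A549, though within counting error of them, and above them in B2B, where that of JunB lay beyond counting error. In A549, JunB was called at 7 of 43 collagen genes (16.28%, 8.117 to 29.97), Jun at 10 of 44 (22.73%, 12.84 to 36.99) and JunD at 4 of 44 (9.091%, 3.592 to 21.16), beside 26.5%, 31.9% and 15.8% of all genes. In B2B, JunB was called at 6 of 44 (13.64%, 6.403 to 26.71), Jun at 12 (27.27%, 16.35 to 41.85) and JunD at 2 (4.545%, 1.256 to 15.13), beside 3.02%, 16.5% and 1.75%. All genes thus had more promoter peaks in A549, where the JunB share was 23.46 points higher, that of Jun 15.4 and that of JunD 14.06. At the collagen genes JunB differed by 2.326 points (−13.29 to 17.89), Jun by −4.545 points (−22.16 to 13.42) and JunD by 4.545 points (−7.387 to 17.05).

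Collagen genes have more annotated starts than other genes, with a median of 7.5 against 5.0, which gives a peak more places to be counted. At the canonical start alone, B2B JunB was called at 5 of 44 collagen genes (11.4%) and at 0.814% of all genes, and B2B Jun at 6 (13.6%) and 7.89%. In A549 JunB was then called at 4 of 43 (9.3%, beside 21.3%) and Jun at 6 of 44 (13.6%, beside 25.8%). Near any start, 7 of 43 genes had a Jun-family peak in both lines, 5 in A549 only (COL4A2, COL4A5, COL4A6, COL5A2 and COL9A3) and 5 in B2B only (COL1A2, COL4A3, COL11A1, COL15A1 and COL21A1). Over all genes 24.8% were called in A549 only and 3.74% in B2B only.

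The COL7A1 promoter, whose sequence opens the list above, was the only collagen promoter with JunB, Jun and JunD in both lines. In A549 the JunB fold was 20.17 (percentile 94.2), that of Jun 38.52 (percentile 95.2) and that of JunD 12.11 (percentile 95.2). At the same place in B2B they were 5.593 (percentile 32.3), 13.59 and 3.777 (percentile 14.9). The Jun-family peaks of both lines thus lay before a start at which only A549 had pol II and H3K4me3. A second Jun peak, of 12.81 in A549 and 14.09 in B2B, lay at the other end of the gene near a start of UCN2.

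COL6A1 and COL12A1 had higher Jun-family folds in A549. At COL6A1 JunB stood at 18.69, Jun at 30.57 and JunD at 6.946 in A549, against 3.437, 6.121 and no peak in B2B. At COL12A1 they were 11.15, 24.44 and 6.215 in A549, and 3.295, 11.97 and no peak in B2B. COL8A1 went the other way, with Jun of 5.485 as its single Jun-family peak in A549 and JunB of 8.803, Jun of 15.21 and JunD of 5.168 in B2B. At COL5A3 JunB was higher in A549, at 11.92 against 3.404, and Jun in B2B, at 7.53 against 4.602. As percentiles of their own lists, COL8A1 Jun stood at 10.7 in A549 and 76.1 in B2B, and COL6A1 Jun at 91.6 and 25.6.

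**Figure D4:**
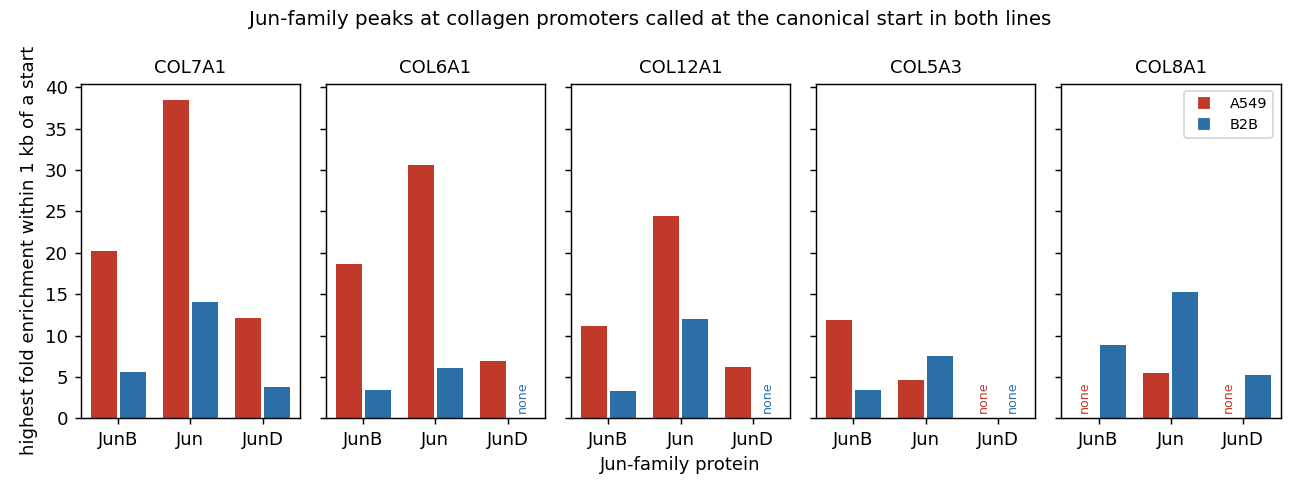
Highest fold enrichment (ratio, linear axis from 0) within 1 kb of any start, by Jun-family protein, in A549 (red) and B2B (blue) at the 5 collagen genes with a Jun-family peak at the canonical start in both lines. COL7A1 has bars for all 3 proteins in both lines (its B2B Jun bar, 14.09, is the peak near UCN2), and COL8A1 is the gene whose Jun bar is highest in B2B relative to A549, at 15.21 against 5.485.

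The remaining promoter peaks were mostly at internal or alternative starts. COL5A2 had Jun of 41.11 (percentile 96.1) and JunD of 9.38 in A549, 847 and 836 bases before an alternative start and over 46 kb before the canonical start. COL16A1 had Jun of 6.57 in A549 and JunB of 6.104 and Jun of 18.8 in B2B at a start about 14 kb into the gene. COL1A1 had JunB of 5.247 in A549 and Jun of 3.858 in B2B at separate places, so its call in both lines was not a shared site. COL4A5 and COL4A6 shared a weak Jun peak in A549, of 4.488 (percentile 2.97). COL4A2 had JunB of 5.247 and COL9A3 JunB of 6.268 and Jun of 5.978 in A549. In B2B, Jun was 18.48 at COL4A3 and at COL21A1, 20.79 at COL11A1 and 7.346 at COL15A1, each at a start inside the gene.

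CTCF and Rad21, which mark insulators and loop anchors, were measured in B2B. CTCF was called at 20 of 44 collagen genes (45.45%, 31.71 to 59.93), beside 38.0% of all genes, and Rad21 at 26 of 44 (59.09%, 44.41 to 72.31), beside 64.4%. At the canonical start alone CTCF was called at 10 of 44 (22.7%), beside 26.5% of all genes. The strongest CTCF peaks were those of COL13A1 (26.94), COL1A2 (25.85) and COL16A1 (23.31). COL6A3, COL14A1 and COL17A1 had CTCF and no other promoter peak in B2B.

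In the RefSeq promoter table (GRCh38.p14, 250 bases before to 50 bases after the start), 32 of the 44 collagen genes had an entry. Their median GC content was 66.33%, beside 63.0% for all 15345 promoters, and the median number of CpG was 22.0 in both. The 9 with H3K4me3 in both lines had a median of 22.0 CpG and the 12 with it in A549 only 29.0. The 1 with it in B2B only had 12 and the 10 with it in neither line had a median of 16. Searched on both strands, CCAAT was found in 31.25% of the collagen promoters (36.61% of all), GGGCGG in 56.25% (59.24%) and TATAAA in 15.62% (9.625%). TGACTCA was found in 0 of 32 (3.675% of all). The COL7A1 and COL5A3 summits printed above lie outside this window, and COL6A1 had no entry.

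Collagen gene bodies are long, with a median of 144.8 kb against 27.47 kb for all protein-coding genes, so Jun-family peaks in the body were counted per Mb. JunB had 55 peaks in collagen bodies in A549 and 22 in B2B, which was 8.222 and 3.289 per Mb, beside 11.13 and 3.346 over all gene bodies. Jun had 70 and 125 peaks, or 10.46 and 18.69 per Mb, beside 15.6 and 19.11. JunD had 16 and 12 peaks, or 2.392 and 1.794 per Mb, beside 3.885 and 2.454. All 3 densities were thus below those of all bodies in A549, while in B2B those of JunB and Jun were close to them. Collagen bodies held a smaller share of regions within 1 kb of a start (9.938% beside 24.5%), and the densities were not adjusted for this. The motif and overlap shares given further below were not adjusted for it either.

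The A549 to B2B ratio was 2.5 for JunB, 0.56 for Jun and 1.333 for JunD, beside 3.326, 0.8161 and 1.583 over all bodies. The A549 JunB list holds 28068 peaks and the B2B list 8563. With the A549 list cut to the same length the JunB ratio was 1.136, so that the surplus of A549 JunB peaks went with the longer list. At least 1 JunB peak lay in 22 of 43 collagen bodies in A549 and in 11 of 44 in B2B (51.16% and 25%, beside 38.3% and 13.8% of all genes). For Jun these were 25 and 29 of 44 (56.82% and 65.91%, beside 46.1% and 39.8%), and for JunD 13 and 7 (29.55% and 15.91%, beside 19.7% and 10.5%).

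Merged over the 3 proteins and both lines, the peaks formed 161 regions in 33 collagen genes. 46 regions (28.57%, 22.16 to 35.99) were called in both lines, 35 (21.74%, 16.07 to 28.73) in A549 only and 80 (49.69%, 42.06 to 57.33) in B2B only. Over all gene bodies these shares were 26.32%, 34.74% and 38.94%. 140 regions had their strongest summit in an intron of the canonical transcript, 36 of them in intron 1, 9 in an exon and 12 outside this transcript. A summit lay within 1 kb of a start of any coding gene in 9.938% of the regions (6.21 to 15.53), beside 24.5% over all bodies. 10 genes had no Jun-family peak at a start or in the body, namely COL2A1, COL6A2, COL6A3, COL8A2, COL9A1, COL9A2, COL10A1, COL11A2, COL19A1 and COL20A1, the last without a score for A549 JunB. No share over all genes stands beside this count or that of the 33 genes with a region, so neither can be read as high or low.

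**Figure D5:**
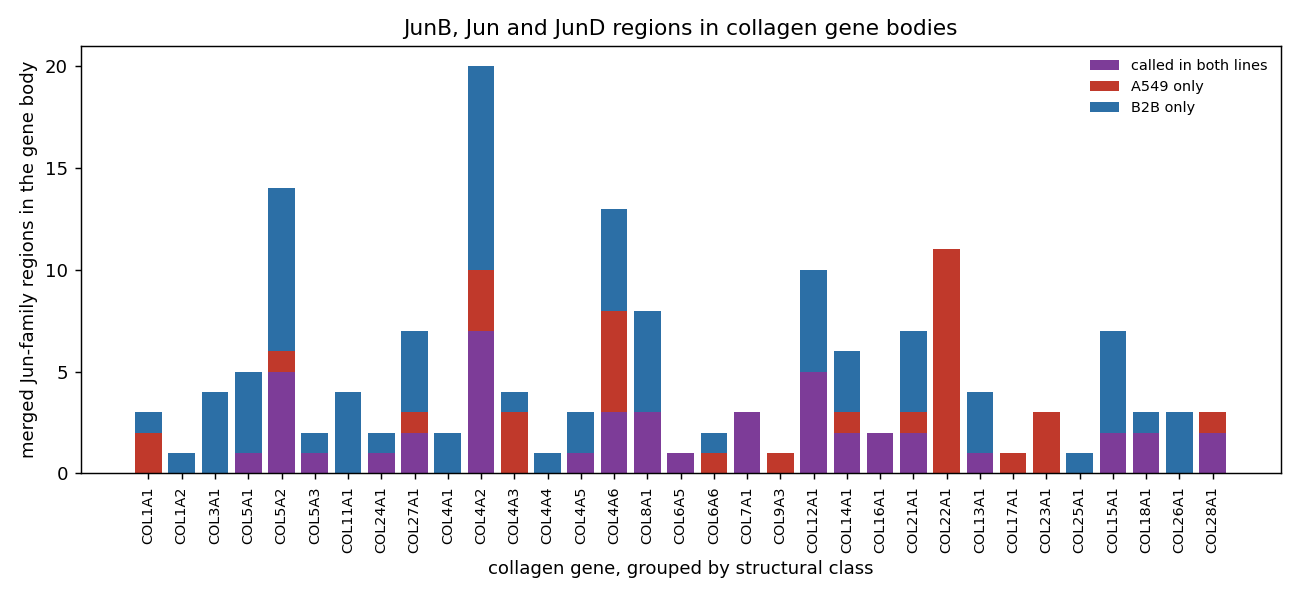
Number of merged JunB, Jun and JunD regions in the body of each of the 33 collagen genes with at least 1, split into regions called in both lines (purple), in A549 only (red) and in B2B only (blue). COL4A2 has 20 regions, COL5A2 has 14, and the 11 regions of COL22A1 were called in A549 only.

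COL4A2 held the most Jun-family peaks of any collagen gene in each line, 20 in A549 and 26 in B2B. They formed 20 regions, 7 called in both lines, 3 in A549 only and 10 in B2B only. The region with the highest folds in B2B, at chr13:110412090-110412655 in intron 4 and about 105 kb past the start, had peaks of the whole Jun family in A549 and in B2B, with 16.25 for JunB, 23.92 for Jun and 6.623 for JunD in A549 and 12.13, 42.11 and 9.65 in B2B. The gene shares its promoter with COL4A1, whose own body held 2 regions, both in B2B only.

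COL5A2 held 10 peaks in A549 and 16 in B2B, and 8 of its 14 regions were called in B2B only, with 3 of the shared regions lying between its alternative and canonical starts. COL12A1 held 10 and 14 peaks in 10 regions, 5 of them shared and 5 in B2B only. COL4A6 held 11 and 8 peaks in 13 regions, of which 5 were in A549 only and 5 in B2B only. COL15A1 held 5 and 12 peaks and COL8A1 5 and 9, with 5 regions in B2B only and none in A549 only at each.

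Several fibrillar genes had body regions in B2B alone. COL3A1 had 4 Jun regions in B2B, with folds of 9.416, 8.779, 5.545 and 11.09, and none in A549. COL11A1 had 4 in B2B and none in A549, and COL1A2 had 1 and none. The nearest A549 Jun-family peak lay 63473 to 86845 bases from the COL3A1 regions and 1508125 to 1548227 from those of COL11A1. The stretch without A549 peaks thus reached beyond both genes. COL1A1 had 1 region in B2B and 2 in A549, all with a single protein each.

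COL22A1, the FACIT collagen of tissue junctions, went furthest the other way. Its 16 A549 peaks formed 11 regions along introns from 17.61 to 310.4 kb past the start, with JunB folds of up to 12.32 and Jun folds of up to 15.03, and no Jun-family peak was called in its body in B2B. The nearest B2B Jun-family peak lay 983268 to 1275936 bases from these regions, so the absence in B2B was not limited to this gene. The COL22A1 promoter had H3K4me3 and H3K27ac in A549 only and no pol II peak. Without COL22A1 the A549 to B2B ratio was 2.136 for JunB and 0.504 for Jun. COL23A1 had 5 peaks in 3 regions in A549 and none in B2B. COL9A3 and COL17A1 each had 1 region, in A549 only.

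Regions bound by all 3 Jun-family proteins numbered 16 of 81 in A549 (19.75%, beside 17.07% of all regions) and 11 of 126 in B2B (8.73%, beside 9.263%). Jun alone was called at 29.63% of the A549 regions and 81.75% of the B2B regions, beside 35.15% and 79.63%. 7 regions had all 3 in both lines. The 3 with the highest summed fold over both lines are printed here in the same way around the strongest summit, with TGACTCA in capitals.
COL16A1 intron 2, chr1:31701200-31701300: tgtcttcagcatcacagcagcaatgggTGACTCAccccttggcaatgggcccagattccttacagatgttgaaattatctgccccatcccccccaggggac
COL28A1 intron 21, chr7:7438988-7439088: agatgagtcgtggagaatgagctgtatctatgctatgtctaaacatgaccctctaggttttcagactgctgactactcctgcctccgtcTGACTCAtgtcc
COL24A1 intron 37, chr1:85850380-85850480: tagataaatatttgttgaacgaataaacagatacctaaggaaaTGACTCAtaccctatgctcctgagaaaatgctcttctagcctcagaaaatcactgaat
Each of the 3 windows holds TGACTCA. The COL16A1 region, 2.767 kb past the canonical start, had Jun of 48.6 in A549 and 23.37 in B2B. The COL28A1 region had Jun of 44.6 and 37.12, and it lay 96.83 kb into a gene without any promoter peak. The COL24A1 region, 306.3 kb past the start, had Jun of 31.07 in A549 and 44.82 in B2B.

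Regions with all 3 proteins in a single line, the other line having none of them closer than 1 kb, numbered 2 in A549 and 1 in B2B, and their windows are given for comparison.
COL21A1, A549 only, chr6:56279912-56280012: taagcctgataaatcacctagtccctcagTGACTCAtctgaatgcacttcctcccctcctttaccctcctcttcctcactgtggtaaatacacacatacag
COL23A1 intron 1, A549 only, chr5:178585630-178585730: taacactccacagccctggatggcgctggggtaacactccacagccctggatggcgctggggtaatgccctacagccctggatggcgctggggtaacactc
COL15A1 intron 16, B2B only, chr9:99030232-99030332: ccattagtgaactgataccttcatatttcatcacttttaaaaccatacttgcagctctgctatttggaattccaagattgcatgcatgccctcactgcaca
The COL21A1 region lies before the canonical start and within the annotated gene, and it had JunB of 20.01, Jun of 20.45 and JunD of 5.484. The COL15A1 region had Jun of 64.44, the highest Jun fold in any collagen body, with JunB of 4.953 and JunD of 3.954. Its window holds no TGACTCA. The COL23A1 window is built of near-identical repeats and holds no TGACTCA either, and how reads were placed among the copies was not tested.

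TGACTCA lay within 50 bases of the strongest summit in 42 of 81 A549 regions (51.85%, 41.14 to 62.4), beside 38.68% over all bodies, and in 50 of 126 B2B regions (39.68%, 31.57 to 48.41), beside 39.44%. In windows 2 kb away the share was 1.852% and 1.587%. Regions bound by all 3 proteins had it in 68.75% of 16 in A549 and 72.73% of 11 in B2B, beside 46.75% and 67.07% over all bodies, and regions of a single protein in 36.11% of 36 and 33.98% of 103, beside 27.99% and 34.01%.

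The overlap of the regions with the enhancer marks of their line was below that over all bodies in A549 beyond counting error. In B2B it was above it for H3K27ac, with many of those regions in COL4A2, and for Med1 within counting error of it. COL4A2 lies on chromosome 13, where A549 H3K27ac could not be scored. For this mark the lines were thus compared on unlike sets of regions, and the B2B share without COL4A2 was not computed. The intervals take the regions as independent, although COL4A2 alone held 20 of the 161. H3K27ac overlapped 9 of 56 A549 regions that could be scored (16.07%, 8.693 to 27.81), beside 38.22% over all bodies, and 30 of 126 B2B regions (23.81%, 17.22 to 31.95), beside 16.82%. Med1 overlapped 12.12% of A549 regions (6.272 to 22.14), beside 34.37%, and 17.43% of B2B regions (11.45 to 25.63), beside 14.71%. In B2B, CTCF overlapped 32.54% of the regions (24.98 to 41.13) and Rad21 13.49% (8.597 to 20.55), beside 33.3% and 10.45%.

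A list of 32 genes for hydroxylation, folding, cleavage and cross-linking of the chains was scored on the same start sites. H3K4me3 was called at 24 of 31 in both lines (beside 60.1% of all genes). It was called at 6 in A549 only (beside 12.4%) and at 1 in B2B only (beside 1.38%). Pol II was called at 17 of 31 in both (beside 48.8% of all genes) and at 3 in neither. It was called at 7 in A549 only (beside 19.1%) and at 4 in B2B only (beside 1.43%). P4HA1 and P4HA2, which code for the catalytic chains of prolyl 4-hydroxylase, and SERPINH1, the collagen chaperone, had pol II in both lines, of 76.94, 90.83 and 39.11 in A549 and 9.637, 3.89 and 4.839 in B2B.

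SPARC, a collagen-binding matrix protein, stood apart from this list. In A549 its promoter had JunB of 5.903 and no pol II, H3K4me3 or H3K27ac, and in B2B it had pol II of 14.11, H3K4me3 of 13.95, H3K27ac of 9.424, Med1 of 20.77, JunB of 10.51, Jun of 20.08 and JunD of 5.154. LOX, which cross-links fibrillar collagen, had pol II in B2B only, of 4.829, and H3K4me3 in both lines, of 6.054 in A549 and 4.112 in B2B. LOXL1 likewise had pol II in B2B only, of 4.79. Any Jun-family protein was called at 8 of 31 genes of the list in both lines (beside 12.8% of all genes). It was called at 6 in A549 only (beside 24.8%) and at 3 in B2B only (beside 3.74%).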

How the data were processed

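ChIP-seq peak lists of A549 (7 targets) and B2B (9 targets) were analysed. Per the labels and the study's methods, the authors aligned reads to hg38 with Bowtie2 2.4.4, removed duplicate reads, merged the 2 samples of each target, scaled them with SAMtools 1.13 and called peaks with MACS2 2.2.7.1. The options and the control of the peak calling were not given in the sources used here. The deposited values of each peak are its fold enrichment (a ratio), a deposited score, −log10 p and −log10 q, and the position of its summit. No read counts were used, so depth is unknown, and Wilson and Newcombe intervals cover the counting of genes or regions only. A549 CTCF, A549 Rad21 and the inputs were not analysed here.

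Genes and starts came from GENCODE 44. A promoter call needed a peak that touched the 1 kb on either side of any start, and a body call a peak that touched the gene by at least 1 base. A gene was scored only on chromosomes a list covered whole. Lists of at least 20000 peaks whose last peak on chromosome 5 lay more than 500 kb before the last of any list (6 lists) were taken to stop short of chromosome ends, and genes beyond their last peak on a chromosome were not scored. The cause was not tested. Jun-family regions are overlapping peaks of any of the 3 proteins, joined within a line and then between the lines. Python 3.11.15, NumPy 2.4.6, pysam 0.24.0 and matplotlib 3.10.9 were used. The interval code was tested on simulated data against bedtools 2.31.1.

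No test between lines was run, since each list is 1 pooled value. Members given in full were those with a Jun-family promoter peak, the 5 per line with most Jun-family body peaks, those whose pol II, H3K4me3 or H3K27ac calls differed, the type IV pairs, and COL1A1, COL1A2 and COL3A1. The regions shown were up to 3 per kind by summed fold. The members and lists were chosen with earlier results of these data known. Alternatives were a −log10 q of at least 5, 3 kb, canonical starts, summits, lists of equal length, chromosomes 1 to 12, other motif windows and other overlaps. The sequence at 1 of the Jun-family summits is not reported here.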

Additional observations from a re-analysis of the deposited data

How the results depend on the processing

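Of 86 alternative values, 82 moved by less than their counting interval or by less than 1.5 times, and 4 moved by more. The paired intervals among the 82 change the limits only, so their values could not move. The H3K4me3 difference stayed above 0 under each alternative, between 30.23 and 37.21 points. The intervals of the H3K27ac and Med1 differences held 0 under some settings and not under others. With the canonical start only, the CTCF share in B2B was 22.73% in place of 45.45%. With lists of equal length, the JunB ratio in gene bodies was 1.136 (25 against 22 peaks) in place of 2.5. With 25 bases on each side of the summit, the AP-1 share was 28.4% in A549 and 24.6% in B2B, as a narrower window holds fewer letters. The JunB promoter difference changed sign within its interval, from −6.061 points on chromosomes 1 to 12 to 6.977 points at 3 kb. Counting the type IV pairs once, taking the chromosome ends as covered, the canonical start for CTCF and Rad21, the paired intervals and leaving out COL22A1 were chosen after seeing the data. No paired analysis was possible because each list pools its samples, and for the same reason no sample could be left out. A missing peak cannot be told apart from one under the peak caller's threshold, and 4 lists end before the last chromosomes.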

Other observations

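Collagen receptors pass the signal of matrix collagen into the cell. Of 7 receptor genes, H3K4me3 was called at DDR1, ITGA1, ITGA2 and ITGB1 in both lines, at ITGA10 and ITGA11 in A549 only and at DDR2 in B2B only. The shares of all genes were 60.1% in both lines, 12.4% in A549 only and 1.38% in B2B only. Pol II was called at DDR1, ITGA1 and ITGB1 in both lines and at ITGA2 in A549 only, with a fold of 28.32. The shares of all genes were 48.8% in both lines and 19.1% in A549 only. ITGB1, the shared beta chain of the collagen-binding integrins, had pol II of 114.0, JunB of 47.09, Jun of 48.39 and JunD of 13.27 in A549, and 4.262, 4.703, 21.89 and no JunD peak in B2B. DDR1, the discoidin-domain receptor of epithelium, had JunB of 11.79 and Jun of 13.82 in A549 and 4.089 and 9.421 in B2B. DDR2, its mesenchymal counterpart, had a single promoter peak, of H3K4me3 in B2B with a fold of 3.782.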
